A study of Arabidopsis thaliana with 4 samples.

Results

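Aminoacyl-tRNA synthetases are the enzymes that join each amino acid to its transfer RNA, and their genes were examined in shoots of add3 and wild-type Arabidopsis thaliana seedlings. The list held 45 loci for 20 amino acids, of which 26 encode cytosolic and 19 organellar enzymes, assigned from general knowledge of these proteins. A member was measured where the platform annotation tied a probe set to that gene alone. This held for 19 of the 45 loci, 17 cytosolic and 2 organellar, out of 13286 loci with such a probe set in the annotation used. That annotation gave a single gene for 13513 of 22746 probe sets, so a locus without one is not shown to be absent from the array. Of the measured synthetases only AT1G50200 (ALATS) has a symbol other than its locus, while most unmeasured ones have one. The measured set may therefore not represent the family. The contrast between compartments therefore rests on few organellar genes.

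The add3 group (ARRESTED DEVELOPMENT 3) is a mutant obtained with the chemical mutagen EMS in Col-3 gl1, a background whose gl1 mutation leaves the plants without leaf hairs. The wild-type group is Col-0, so the add3 mutation, any other EMS mutation the line carries, gl1 and the Col-3 background differ together between the groups and cannot be told apart. After 4 days at 4 °C all plants were kept at 29 °C under continuous light (24 h daily), and the labels give developmental stage 1.02 and list hypocotyl, cotyledons, meristems and young true leaves as the material. The groups had 2 samples each, hybridised to separate Affymetrix ATH1 arrays. The labels do not say which gene carries the add3 mutation, so no transcript could check that mutation. They also leave unstated whether the 2 samples of a group were grown separately. The p-values accordingly measure the spread between these samples alone, which may be technical.

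Plants carry separate sets of synthetases for the cytosol and for their organelles, all encoded in the nucleus. Many organellar enzymes are imported into both plastids and mitochondria, and several cytosolic enzymes also reach mitochondria. Loss of organellar synthetases often stops embryo or ovule development, which gave genes such as OVA2 and EMB2369 their names. The enzymes fall into class I and class II by the fold of their catalytic domain.

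Signals are MAS5 intensities, which are comparable between arrays for a given probe set and not between probe sets. Array medians lay at 48.4 and 48.2 for add3, against 52.1 and 51.4 for wild type. Background, taken as the highest of 27 bacterial control probe sets, was 25.4 (replicate 1) and 12.3 (replicate 2) for add3, against 20.5 (replicate 1) and 13.0 (replicate 2) for wild type. Of the 19 measured synthetases 18 lay above background on every array. None of the 27 listed markers of leaf, trichome, root and seed storage tissue had a single-gene probe set in the annotation used, so the labelled tissue was not checked with them. In bulk tissue, a lower transcript level in each cell and fewer cells that express the gene cannot be told apart.

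Among the 17 cytosolic synthetases 1 fell in add3 seedlings and 0 rose, and neither of the 2 organellar ones passed the test. The background for these counts is 4.17% of 13648 tested probe sets higher and 3.14% lower in add3, or 7.31% in either direction (limma, Benjamini-Hochberg adjusted p under 0.05). At an unadjusted p under 0.05 there were 2 cytosolic members and 1 organellar member, or 3 of 19, against 26.3% of all tested probe sets. The gene that fell encodes a threonyl-tRNA synthetase, and the organellar gene encodes the phenylalanyl-tRNA synthetase of plastids and mitochondria. The median log2 difference, add3 minus wild type, was 0.10 over the cytosolic members and 0.46 over the organellar pair, beside -0.047 over all tested probe sets.

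**Figure D1:**
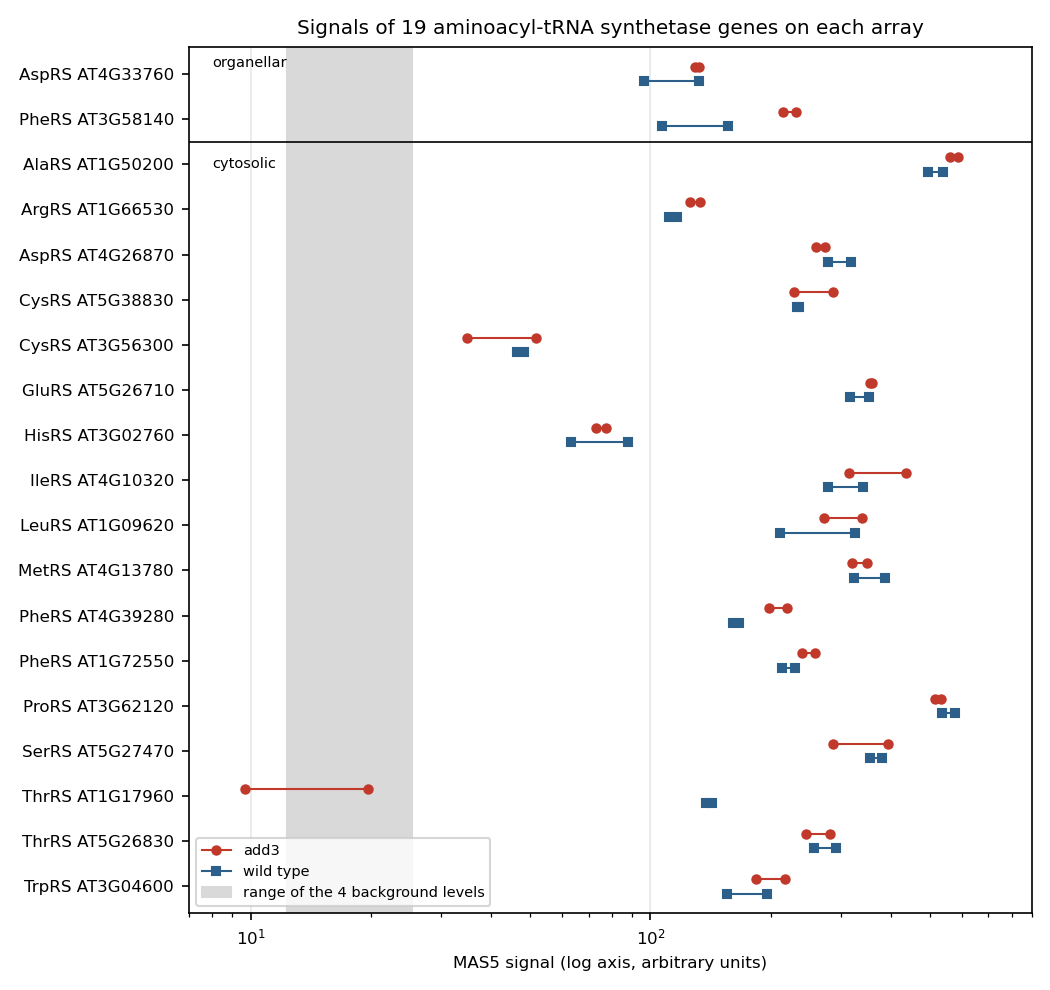
MAS5 signal (log axis, arbitrary units) of the 19 measured synthetase genes on each array, with organellar genes above the line and cytosolic genes below it; red circles are the 2 add3 arrays, blue squares the 2 wild-type arrays, lines join the arrays of a group, and the grey band spans the background levels from 12.3 to 25.4. ThrRS AT1G17960 is the gene whose add3 signals lie within or under the band.

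The threonyl-tRNA synthetase gene AT1G17960 had signals of 9.68 and 19.7 in add3 seedlings, against 142 and 138 in wild-type seedlings. The wild-type arrays nearly coincided, and both add3 arrays lay far below them. The log2 difference was -2.51 (SE 0.21, limma 95% interval -3.01 to -2.02, limma adjusted p = 0.00617), the fifth largest fall among the 13648 tested probe sets. Its add3 mean of 14.7 lay under the mean signal of 33.2 required for testing. The gene was therefore tested only through its wild-type mean of 140. Only 1 of the 2 add3 arrays exceeded its background level, so the fitted size rests partly on a signal below background. The fit, which adds a pseudocount to every signal, corresponds to a 5.71-fold lower level. Without the pseudocount, add3 replicate 1 was set at its background of 25.4 and add3 replicate 2 kept at its signal of 19.7. The signal was then 6.28-fold lower in add3, a point estimate without an interval.

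AT5G26830, the gene of the threonyl-tRNA synthetase that serves the cytosol and mitochondria, did not pass the test. Its signals were 245 and 282 in add3 seedlings, against 256 and 291 in wild-type seedlings, so the groups overlapped (log2 difference -0.052, limma 95% interval -0.37 to 0.27, limma adjusted p = 0.84). The difference of AT1G17960 was set apart from that of AT5G26830 by -2.46 on the log2 scale, with a range of -2.74 to -2.18 over the 4 pairings of an add3 with a wild-type array. With 2 arrays in each group an exact two-sided permutation test cannot go below p = 0.333, so no p is given for this contrast between genes. The organellar threonyl-tRNA synthetase EMB2761 is not analysed here. Leaving out any 1 of the 4 arrays gave log2 differences of -2.78 to -2.25 for AT1G17960. The lowest, without add3 replicate 2, rested for add3 on replicate 1 alone, whose signal was below background. The call of AT1G17960 was lost with no filter on low signals (limma adjusted p = 0.0511). Its size depended on the pseudocount, with -3.25 at a pseudocount of 1 and -1.56 at the median signal of 50.1.

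The organellar phenylalanyl-tRNA synthetase gene AT3G58140 had signals of 215 and 232 in add3 seedlings, against 107 and 157 in wild-type seedlings. The groups did not overlap, and the wild-type arrays differed by more than the add3 arrays did. The log2 difference was 0.73 (SE 0.18, limma 95% interval 0.30 to 1.16), a 1.66-fold higher level that missed the threshold (limma adjusted p = 0.0570). It passed the threshold with arrays scaled to equal medians (log2 difference 0.82, limma adjusted p = 0.0361). That scaling also moved the median of all tested probe sets from -0.047 to 0.040, with 937 rises called in place of 569. The gene also passed with the filter at the 60th percentile (limma adjusted p = 0.0477) and with the replicate number as a block (0.0390). In 9 of 14 alternatives AT3G58140 still missed the threshold. These include no filter on low signals (limma adjusted p = 0.137), no intensity trend (0.0814) and quantile normalization (0.0619). Without wild-type replicate 2 the log2 difference was 0.98, and without wild-type replicate 1 it was 0.48.

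The cytosolic enzyme for phenylalanine is built from an alpha and a beta chain. The alpha chain gene AT4G39280 had signals of 198 and 219 in add3 seedlings, against 161 and 166 in wild-type seedlings, which did not overlap (log2 difference 0.33, limma 95% interval 0.025 to 0.63, limma adjusted p = 0.163). The beta chain gene AT1G72550 had 258 and 240 in add3 seedlings, against 213 and 230 in wild-type seedlings, also without overlap (log2 difference 0.16, limma 95% interval -0.14 to 0.46, limma adjusted p = 0.467). All 3 phenylalanyl-tRNA synthetase genes had higher signals on both add3 arrays than on either wild-type array, as did 24.8% of all tested probe sets, and none passed the test. The difference of the organellar gene exceeded that of the alpha chain by 0.40 (0.16 to 0.65 over the 4 array pairings) and that of the beta chain by 0.57 (0.27 to 0.87).

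Aspartate was the other of 2 amino acids with a measured enzyme in both compartments. The organellar aspartyl-tRNA synthetase gene AT4G33760 had signals of 133 and 130 in add3 seedlings, against 132 and 96.5 in wild-type seedlings. Wild-type replicate 1 matched the add3 arrays and wild-type replicate 2 lay below them (log2 difference 0.19, limma 95% interval -0.20 to 0.59, limma adjusted p = 0.505). The cytosolic gene AT4G26870 had 259 and 273 in add3 seedlings, against 278 and 317 in wild-type seedlings, so add3 lay below without overlap (log2 difference -0.15, limma 95% interval -0.46 to 0.15, limma adjusted p = 0.497). The organellar difference exceeded the cytosolic one by 0.34, with -0.0020 to 0.69 over the 4 array pairings. For phenylalanine and aspartate alike the estimate of the organellar gene was above those of the measured cytosolic genes, a comparison that was not tested.

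**Figure D2:**
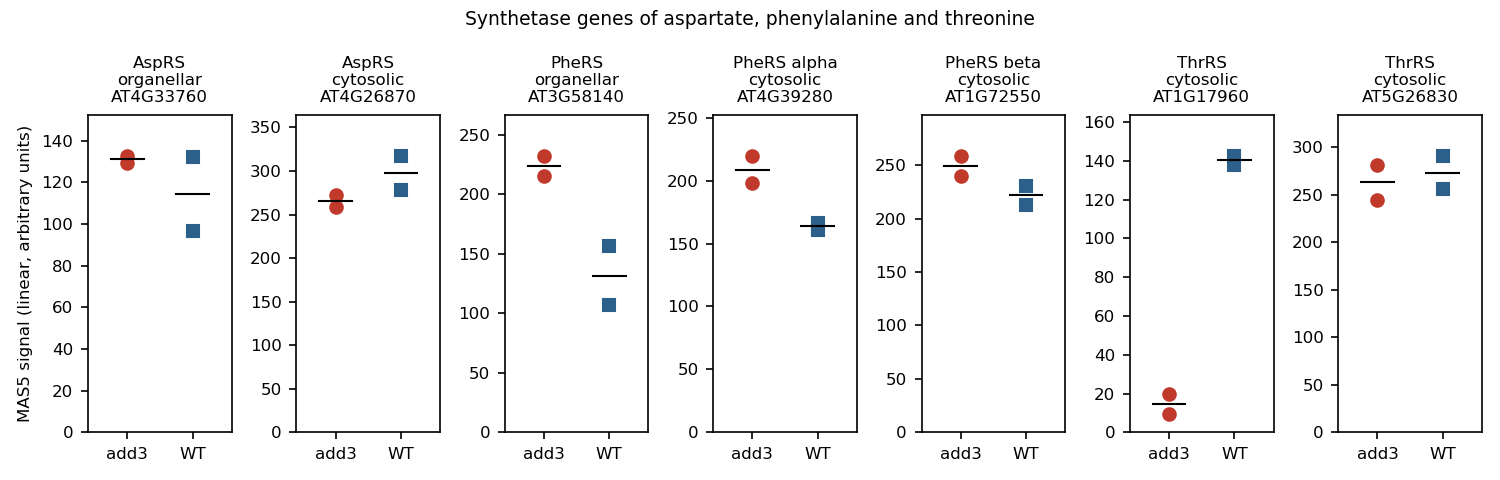
MAS5 signal (linear axis from 0, arbitrary units, a separate scale for each gene) of the measured aspartate, phenylalanine and threonine synthetase genes; points are single arrays (2 add3, 2 wild type, WT) and bars are group means. Organellar PheRS AT3G58140 is higher and ThrRS AT1G17960 lower on both add3 arrays, while ThrRS AT5G26830 overlaps between the groups.

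The cytosolic synthetases of class I had small differences. The isoleucyl-tRNA synthetase gene AT4G10320 had signals of 315 and 436 in add3 seedlings, against 278 and 340 in wild-type seedlings (log2 difference 0.26, limma 95% interval -0.17 to 0.69). The leucyl-tRNA synthetase gene AT1G09620 had 272 and 338 in add3 seedlings, against 211 and 324 in wild-type seedlings (log2 difference 0.20, limma 95% interval -0.29 to 0.70). Both overlapped between the groups, and for the leucine gene the gap between the wild-type arrays was 0.59 on the log2 scale, larger than the difference between groups. Leaving out 1 array gave 0.031 to 0.49 for AT4G10320 (lowest without add3 replicate 2) and -0.092 to 0.50 for AT1G09620, negative without wild-type replicate 1.

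The tryptophanyl-tRNA synthetase gene AT3G04600 had signals of 184 and 217 in add3 seedlings, against 195 and 155 in wild-type seedlings (log2 difference 0.19, limma 95% interval -0.19 to 0.56). The arginyl-tRNA synthetase gene AT1G66530 had 126 and 133 in add3 seedlings, against 117 and 112 in wild-type seedlings (log2 difference 0.17). The glutamyl-tRNA synthetase gene AT5G26710 had 355 and 358 in add3 seedlings, against 315 and 352 in wild-type seedlings (log2 difference 0.10). The arginine and glutamate genes were higher on both add3 arrays, and the tryptophan gene overlapped, with 0.031 (without wild-type replicate 2) to 0.34 (without wild-type replicate 1) when 1 array was left out.

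Of the cytosolic cysteinyl-tRNA synthetase genes, AT5G38830 had signals of 229 and 286 in add3 seedlings, against 235 and 232 in wild-type seedlings (log2 difference 0.13). AT3G56300 had 34.8 and 51.6 in add3 seedlings, against 46.2 and 48.2 in wild-type seedlings (log2 difference -0.12, limma 95% interval -0.59 to 0.36). In both genes the add3 arrays spanned the wild-type values. The methionyl-tRNA synthetase gene AT4G13780, whose enzyme also charges the initiator tRNA, had 319 and 349 in add3 seedlings, against 386 and 322 in wild-type seedlings (log2 difference -0.078). None of the 8 measured class I genes passed the test, and their smallest limma adjusted p was 0.412.

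Among the remaining class II genes, the alanyl-tRNA synthetase gene AT1G50200 had signals of 560 and 588 in add3 seedlings, against 495 and 540 in wild-type seedlings (log2 difference 0.15, limma 95% interval -0.13 to 0.42). The prolyl-tRNA synthetase gene AT3G62120 had 532 and 515 in add3 seedlings, against 576 and 535 in wild-type seedlings (log2 difference -0.083). The alanine gene lay higher and the proline gene lower on both add3 arrays, and the limma 95% intervals of both spanned 0.

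The seryl-tRNA synthetase gene AT5G27470 had signals of 286 and 393 in add3 seedlings, against 354 and 380 in wild-type seedlings (log2 difference -0.12). The histidyl-tRNA synthetase gene AT3G02760 had 77.2 and 73.1 in add3 seedlings, against 63.4 and 87.7 in wild-type seedlings (log2 difference 0.0070). Both overlapped between the groups. The 11 measured class II genes had log2 differences from -2.51 to 0.73, against -0.12 to 0.26 in the 8 class I genes, and the difference between the classes was not tested.

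**Figure D3:**
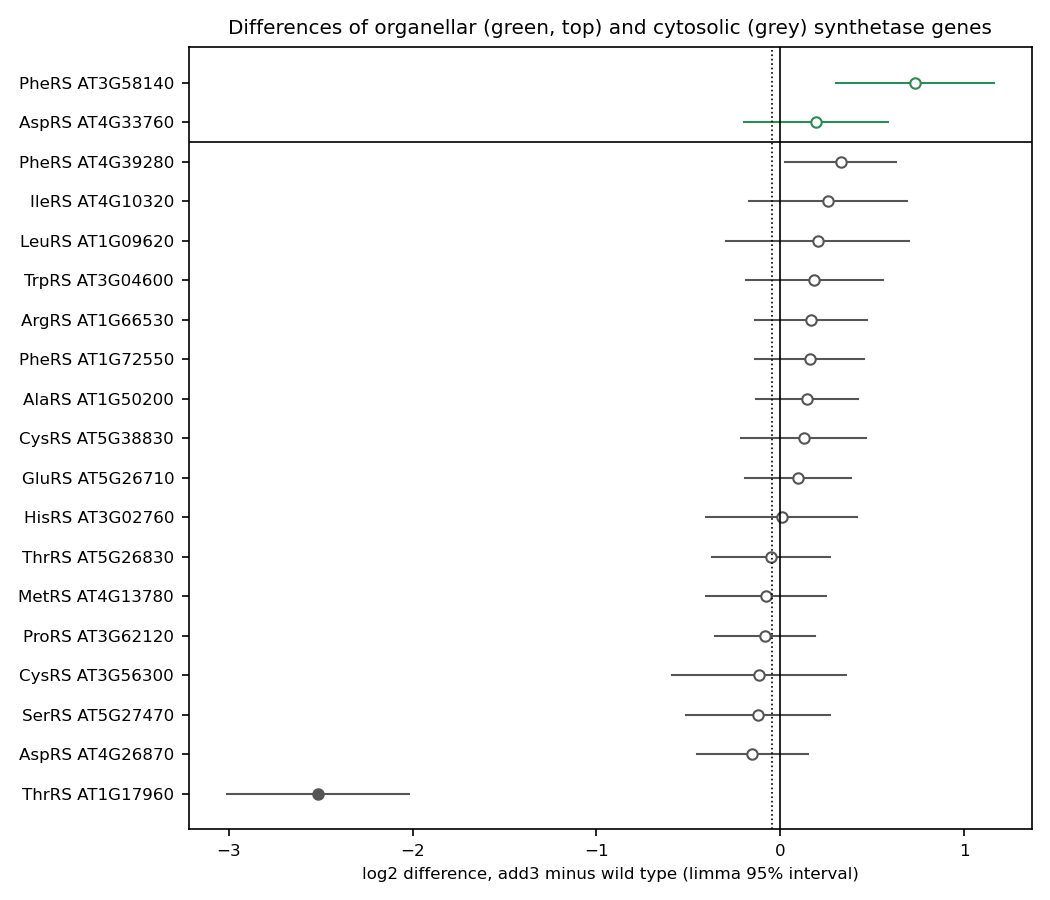
Log2 difference, add3 minus wild type, of the 19 measured synthetase genes with its limma 95% interval; organellar genes are green and above the line, cytosolic genes grey, a filled point passed the threshold, and the dotted line marks the median of all tested probe sets at -0.047. ThrRS AT1G17960 stands at -2.51, while the other 16 cytosolic genes lie between -0.15 and 0.33.

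Apart from AT1G17960, the 16 cytosolic synthetases had log2 differences between -0.15 and 0.33, with a median of 0.11. For 13 of the 18 synthetases that did not pass the test, the larger of the 2 gaps between replicate arrays exceeded the difference between groups. Over all 17 cytosolic genes 10 estimates were above 0, where 44.1% of all tested probe sets were. With arrays scaled to equal medians 13 were, and the median of all tested probe sets moved from -0.047 to 0.040. Both organellar estimates were above 0, except that of AT4G33760 without wild-type replicate 2 (-0.013). Groups did not overlap for 9 of the 19 synthetases, 6 higher and 3 lower in add3, where 57.1% of all tested probe sets did not overlap, 24.8% higher and 32.3% lower. The typical gap between the arrays of a group was 0.13 in add3 and 0.15 in wild type over the synthetases, beside 0.14 and 0.18 over all tested probe sets.

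The other 26 loci had no probe set of their own in the annotation used. The cytosolic tyrosyl-tRNA synthetase genes AT1G28350 and AT2G33840 share a probe set, which had signals of 107 and 106 in add3 seedlings, against 97.4 and 107 in wild-type seedlings (log2 difference 0.063, limma adjusted p = 0.80). That value cannot be assigned to either gene. The remaining 24 loci are not analysed here. Of these, 7 encode cytosolic enzymes, namely TWN2 for valine, AT4G31180 for aspartate, OVA9 for glutamine, AT1G29880 for glycine, ATKRS-1 for lysine, and SYNC1 and SYNC3 for asparagine. The other 17 are organellar, among them OVA1, OVA2, OVA4, OVA5, OVA6, SRS, NS1, ERS, EDD1 and HRS1.

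Genes that act beside the synthetases were read from a list of 26 loci, of which 10 had a probe set of their own. Of these 10, 3 rose and 0 fell, where 4.17% of all tested probe sets were called higher and 3.14% lower. Their median log2 difference was 0.32, beside -0.047 over all tested probe sets. Plastid initiation factor 1, AT4G11175, which helps start translation on plastid ribosomes, had signals of 284 and 262 in add3 seedlings, against 145 and 148 in wild-type seedlings (log2 difference 0.84, SE 0.13, limma adjusted p = 0.0160). Plastid initiation factor 2, FUG1 (AT1G17220), had 849 and 894 in add3 seedlings, against 577 and 617 in wild-type seedlings (log2 difference 0.54, SE 0.11, limma adjusted p = 0.0389). AT2G40660, which carries a tRNA-binding domain like that of Arc1p, a partner of synthetases in yeast, had 198 and 185 in add3 seedlings, against 119 and 126 in wild-type seedlings (log2 difference 0.59, SE 0.13, limma adjusted p = 0.0409). For each of the 3, the groups lay well apart on every array.

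These 3 calls depended on single arrays. AT4G11175 lost its call without add3 replicate 1 (limma adjusted p = 0.0567). FUG1 lost it without add3 replicate 1 or 2 or wild-type replicate 1 (limma adjusted p = 0.143, 0.202 and 0.0733) and with the replicate block (0.0635), and AT2G40660 without any 1 of the 4 arrays (0.0626 to 0.173) and with the replicate block (0.0585).

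Organelles make glutaminyl-tRNA without a synthetase of their own for it, by amidation of glutamyl-tRNA. AT3G25660, subunit A of that amidotransferase, had signals of 364 and 327 in add3 seedlings, against 252 and 239 in wild-type seedlings, without overlap (log2 difference 0.47, limma adjusted p = 0.0671). It passed the threshold with arrays scaled to equal medians (limma adjusted p = 0.0355), a scaling that also raised the median of all tested probe sets. Subunit C, AT4G32915, had 147 and 157 in add3 seedlings, against 138 and 106 in wild-type seedlings (log2 difference 0.30, limma adjusted p = 0.27).

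The plastid initiation factor 3 genes had estimates of opposite sign. AT2G24060 had signals of 398 and 437 in add3 seedlings, against 368 and 290 in wild-type seedlings (log2 difference 0.34, limma adjusted p = 0.199). AT4G30690 had 231 and 219 in add3 seedlings, against 329 and 260 in wild-type seedlings (log2 difference -0.36, limma adjusted p = 0.177). The remaining 3 genes were the mitochondrial elongation factor Tu gene AT4G02930 (log2 difference 0.057), the D-aminoacyl-tRNA deacylase gene GEK1 (0.066) and the gene of the enzyme that adds CCA ends to tRNAs, AT1G22660 (-0.29). None of these 3 passed the test.

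**Figure D4:**
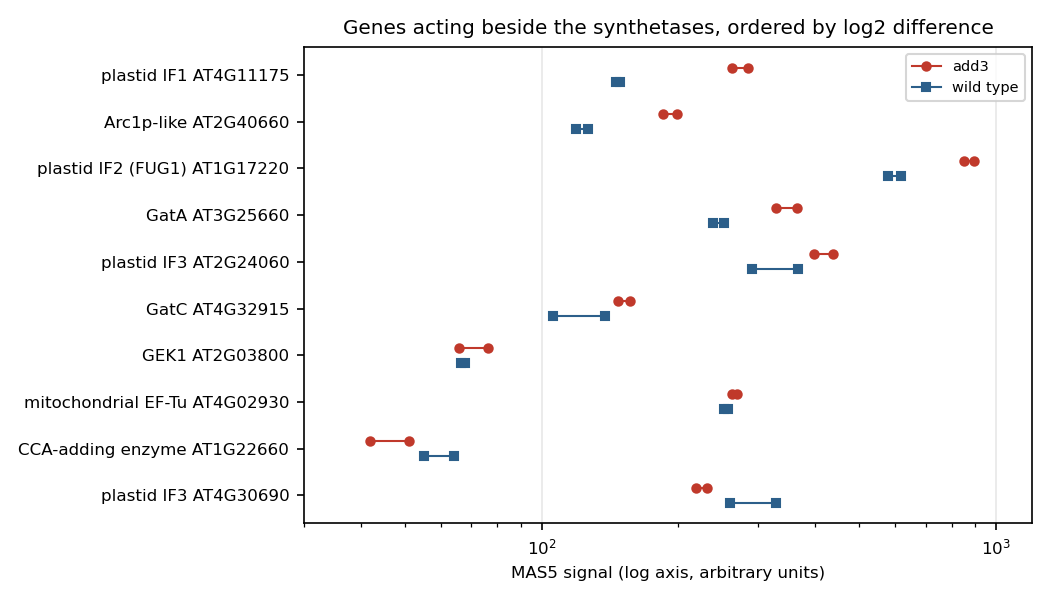
MAS5 signal (log axis, arbitrary units) of the 10 measured genes that act beside the synthetases, ordered from the highest to the lowest log2 difference; red circles are the 2 add3 arrays, blue squares the 2 wild-type arrays, and lines join the arrays of a group. Plastid IF1, the Arc1p-like gene and plastid IF2 (FUG1), at the top, are the 3 that passed the threshold.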

How the data were processed

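The authors deposited linear signal intensity values, which per the submitters' processing notes came from MAS5. Its version is not given in the sources used here. Sample titles gave the groups and replicate numbers. Of 22810 probe sets 64 controls were left out. Names came from the platform annotation and the TAIR10.1 gene table, and 13513 probe sets had 1 gene there. No synthetase had several such probe sets.

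Signals kept the authors' scaling and were logged (log2) after adding a pseudocount of 12.5, which is the table's median of 50.1 times 0.25, so fold changes of dim genes are understated. All 13648 probe sets whose mean signal reached the 40th percentile (33.2) were tested together in limma 3.58.1 (R 4.3.3). The fit used lmFit and a trended eBayes with 2 residual degrees of freedom. Tests were two-sided, and Benjamini-Hochberg adjusted p-values under 0.05 passed. Leaving out an array leaves a lone sample in its group, which is assumed to vary like the other group. The procedure was tested on simulated data.

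The members and lists were chosen with earlier results of these data known, so no test over a list was made. Signals are given for every measured member; full statistics follow a fixed rule that takes members past the threshold, the 4 largest other differences in each compartment, the brightest and dimmest member, and enzymes of the same amino acid as a called one. Those of the phenylalanine beta chain and the cytosolic aspartate gene were added after their values were seen. Of the genes acting beside the synthetases it takes those called and those with the smallest p. Same-numbered arrays of the groups deviated with a correlation of -0.12, which does not settle whether the numbers pair the samples. Background was higher on the replicate 1 arrays (25.4 for add3, 20.5 for wild type) than on the replicate 2 arrays (12.3 and 13.0). The main fit used no pairing.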

Additional observations from a re-analysis of the deposited data

How the results depend on the processing

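Apart from the exceptions named here, the counts of called synthetases held under every alternative tried. So did the direction and call of the 10 synthetases named by rule. The cytosolic median of 0.10 ranged from 0.019 to 0.19 over the alternatives, and so moved by less than its spread between replicates (0.158). With no filter on low signals 0 cytosolic synthetases were called lower, and 0 genes beside the synthetases higher (limma, 22746 probe sets, of which 5 rose and 8 fell, with 4142 at an unadjusted p under 0.05). Over all tested probe sets 569 rose and 428 fell, against 937 and 320 with median scaling, which gave 74.5% of calls as rises in place of 57.1%, and 308 and 247 without the intensity trend. Leaving out 1 array gave 232 to 506 rises and 205 to 311 falls. The organellar count was 1 higher, AT3G58140, with median scaling, with the filter at the 60th percentile, with the replicate block and without wild-type replicate 2, and 0 or 1 over the arrays left out. The organellar median of 0.46 was 0.55 with median scaling, 0.50 with a pseudocount of 1 and 0.37 with a pseudocount of the median signal. Of the genes beside the synthetases 3 were called higher, against 1 without the intensity trend, 1 with the replicate block, and 0 to 2 without 1 array. FUG1 also missed the threshold with quantile normalization (limma adjusted p = 0.0544), and both FUG1 and AT2G40660 without the trend (0.0740 and 0.0610). Log2 differences that changed sign were those of AT5G26830 with median scaling (0.042), and without 1 array those of AT5G26830 (-0.15 to 0.044), AT1G09620 (-0.092 to 0.50), AT3G56300 (-0.34 to 0.10) and AT4G33760 (-0.013 to 0.40). The causes were not tested. AT3G56300 was left out by the filter at the 60th percentile. Because the deviations of same-numbered arrays correlated below -0.1, a crossed pairing was added after seeing the data, and it called 1050 rises and 859 falls, with 1 organellar synthetase. The 2 arrays in each group limit the precision, and signals near background, as for AT1G17960 in add3, have no usable level.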

Other observations

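The genes on either side of AT1G17960 in chromosome order were read because that gene had changed, so this set was chosen after its value was seen. The nearest 5 tested genes on each side lay within 26 protein-coding genes of it, the closest before it, AT1G17890, being 6 away. Of these 10 genes 0 passed the threshold in limma, and their log2 differences lay between -0.10 and 0.47 with a median of 0.15. The gene next to it, AT1G17970, had signals of 59.9 and 39.9 in add3 seedlings, against 45.8 and 53.5 in wild-type seedlings. AT1G18090 had the highest difference of the 10, with 55.3 and 46.5 in add3 seedlings, against 37.0 and 29.5 in wild-type seedlings (limma adjusted p = 0.169).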
